A study of Mus musculus with 2 samples.

Results

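Pi16-negative sublining fibroblasts of the mouse temporomandibular joint (TMJ) were gated by their transcripts in 2 single-cell RNA-Seq libraries, 1 from PBS control mice and 1 from mice injected with complete Freund's adjuvant (CFA). The gate kept 145 cells of the PBS library and 75 of the CFA library, that is, 220 of 6681 quality-filtered and 13380 deposited barcodes. A barcode entered with at least 500 genes, at most 10% mitochondrial unique molecular identifiers (UMIs, counted molecules) and at most 1% hemoglobin UMIs. It then needed no Pi16 UMI, at least 20 UMIs of Dcn and Col3a1 together, and at least 3 of Dpt, Clec3b and Col14a1 together. Barcodes with Prg4 at 0.2% of UMIs or more, cartilage genes (Col2a1, Acan and Hapln1) at 0.1% or more, 5 or more Tnmd and Thbs4 UMIs, any Ptprc, or 2 or more Pecam1 and Cdh5 UMIs were left out. The cells were thus chosen by the counts of these genes in the same libraries, and the gate's own genes are given only as a description.

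Both groups were wild-type (WT) mice labelled C57BL/6 (C57BL/6J in the methods), female per the methods and labelled 8-10 weeks old. They received 10 µL of PBS or of CFA (5 mg/mL) into both TMJs, and the joints were collected 3 weeks later. CFA is a suspension of killed mycobacteria in oil that causes a local inflammation. Condyle, disc, temporal bone, muscle and ligament of the 3 animals given for a group were digested together and depleted of CD45+ leukocytes, so each condition is 1 pooled library. The comparison of CFA with PBS therefore has no replicates, no test was possible, and every interval below covers counting error only.

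Fibroblasts of the synovial sublining and of connective tissue produce collagens, elastic fibers and proteoglycans. In many tissues they fall into an adventitial kind, which expresses Pi16, Dpp4 and Cd55 and lies around larger vessels, and a parenchymal kind, which lacks Pi16 and expresses genes such as Col15a1, Cxcl12 or Comp. Sublining fibroblasts are usually recognized by Thy1 (CD90) and lining fibroblasts by Prg4 (lubricin). Under interferons fibroblasts can express GTPases of the GBP and IRG families and MHC class I genes, and under interleukins they can express chemokines, complement and acute-phase proteins.

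The cells had a median of 10767 UMIs in PBS (1111 to 135076) and 10804 in CFA (1719 to 48202), with medians of 3619 and 3549 genes. Mitochondrial UMIs had a median of 2.70% in PBS and 2.41% in CFA. Hemoglobin UMIs had a median of 0.076% in PBS and 0.0257% in CFA, and the hemoglobin limit reduced the barcodes from 5845 to 2667 in PBS and from 4353 to 4014 in CFA. Median depth was thus close between the libraries, and hemoglobin was not. 10 barcode sequences occur in both libraries, and 0 of them are among the gated cells.

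The gated cells were 5.44% of quality-filtered barcodes in PBS (4.61-6.37%, exact 95% Clopper-Pearson interval) and 1.87% in CFA (1.47-2.34%), a ratio of 0.344 (0.261-0.452). Immune barcodes were 10.0% of the PBS library and 27.8% of the CFA library, and without them in the denominator the gated cells were 6.04% and 2.59%, a ratio of 0.428. Among fibroblasts passing the same gate with or without Pi16, the Pi16-negative cells were 47.2% in PBS (41.5-53.0%) and 35.7% in CFA (29.2-42.6%), and the Pi16-positive cells numbered 162 and 135. A cell of a Pi16-expressing population can be read at 0 UMIs by sampling. Of the gated fibroblasts with fewer than 5000 UMIs, 69.6% lacked Pi16 in PBS and 31.6% in CFA, and of those with at least 15000 UMIs it was 50% and 25.8%. From 5000 to 10000 UMIs the shares were 48.9% and 44.1%, and from 10000 to 15000 UMIs 40.3% and 39.4%, so they did not fall steadily with depth in either library. The Pi16-positive cells had a median of 8 Pi16 UMIs in PBS and 11 in CFA, with 21 and 15 cells at a single UMI.

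At the edges of the gate, 10 PBS and 7 CFA cells held 20 to 29 Dcn and Col3a1 UMIs, and 9 and 10 cells with 10 to 19 were just outside. For Dpt, Clec3b and Col14a1 together, 25 PBS and 32 CFA cells held 3 to 5 UMIs, and 133 and 117 cells with 0 to 2 UMIs met all other conditions. More cells lie beside the latter edge than beside the former. The median of these genes was 19 UMIs in PBS and 7 in CFA, and that of Dcn and Col3a1 was 185 and 107.

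The label of the cells was checked against markers. The fibroblast genes that the gate did not use were abundant in both libraries: Gsn (gelsolin) stood at 9763 CPM (counts per 1000000 UMIs, summed over the cells of a library) in PBS and 7145 in CFA, Col1a2 at 7500 and 4976, Lum (lumican) at 1393 and 807, and Pdgfra at 234 and 266. Beside the RNA Malat1, at 24642 and 29892 CPM, and Sparc (osteonectin), at 10802 and 8690, collagen genes, Dcn and Gsn were among the 20 genes of highest level in both libraries. In endothelial barcodes of the same libraries Gsn was at 632 and 68.1 CPM, and Col1a2 at 735 and 517. Thy1 was at 94.1 CPM in PBS, in 62 of 145 cells, and at 40.2 in CFA, in 22 of 75 cells. Its ratio of 0.428 (0.293-0.610) placed the usual sublining marker lower in the CFA library, and in the unmarked cells defined below it was at 115 and 30.1 CPM. The Pi16-positive fibroblasts had more Thy1 in both libraries (139 and 73.6 CPM).

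Many of the gated cells also carried genes listed as markers of other cell types. Cells with at least 10 UMIs of the mural list (Notch3, Rgs5, Myh11, Acta2 and Des) were 21 of 145 in PBS (14.5%, 9.19-21.3%) and 20 of 75 in CFA (26.7%, 17.1-38.1%). Cells with at least 3 UMIs of the osteoblast list (Bglap, Runx2, Sp7, Ibsp and Alpl) were 28 (19.3%) and 24 (32.0%). Schwann cell genes reached 10 UMIs in 6 and 4 cells, satellite cell genes 3 UMIs in 1 and 4 cells, and adipocyte genes 3 UMIs in 0 and 1 cell, while secretory gland genes made up at least 1% of UMIs in 2 and 0 cells.

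In all, 47 PBS cells (32.4%, 24.9-40.7%) and 43 CFA cells (57.3%, 45.4-68.7%) carried at least 1 of these signatures, and the 98 PBS and 32 CFA cells without them are called unmarked below. The thresholds for this division were chosen after the data were seen. By the choice of cells, Acta2 (smooth muscle actin, of the mural list) was at 2366 CPM in all PBS cells and 20.5 in the unmarked, and at 1628 and 6.69 in CFA. A list of 10 fibroblast genes outside the gate, Gsn and Col1a2 among them, summed to 30119 CPM in all PBS cells and 38817 in the unmarked, and to 22066 and 34220 in CFA, against 2862 and 1506 in PBS and CFA endothelial barcodes. Thy1, given above, was not higher in the unmarked CFA cells. For the marked cells, sublining fibroblast is used only as the name of the gate. The unmarked cells had a median depth of 10477.5 UMIs in PBS and 8656.5 in CFA, and a median of 2.48% and 1.79% mitochondrial UMIs. The marked cells were deeper, with medians of 13339 and 11639 UMIs, and most of the thresholds are fixed UMI counts that deeper cells reach more easily. Of the gated cells, 14 in PBS and 14 in CFA also met a mural gate that required Notch3. Whether the other marked cells are of another type was not tested. Values of the unmarked cells are given beside those of all gated cells for many of the genes and lists below.

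**Figure D1:**
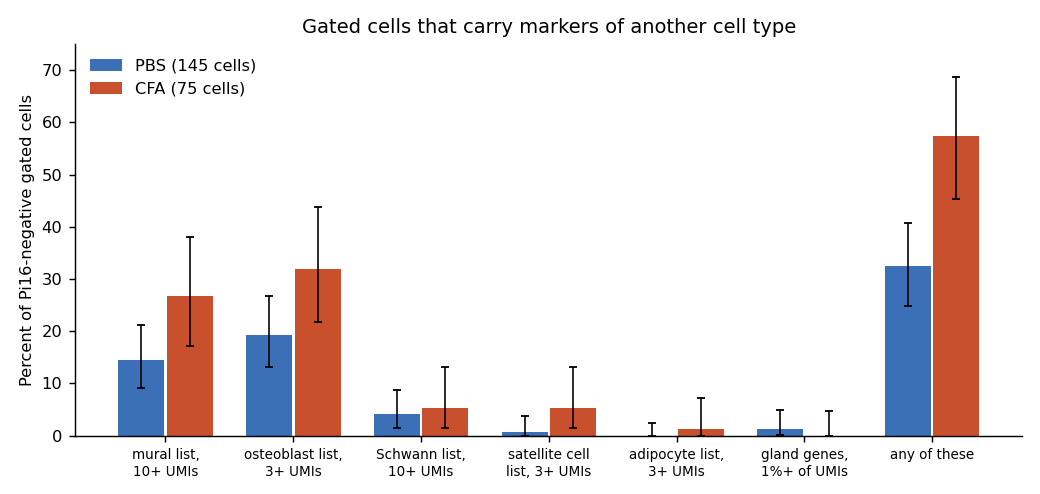
Percent of gated cells (y axis) that carried markers of another cell type, for each type on the x axis, in the PBS library (145 cells) and the CFA library (75 cells). Bars start at 0 and the error bars are exact 95% Clopper-Pearson intervals. Mural and osteoblast markers were the most frequent, and any marker was seen in 32.4% of PBS and 57.3% of CFA cells.

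One PBS barcode needs its own mention. With 135076 UMIs it held 7.14% of all UMIs of the PBS cells, and 69.1% of its UMIs came from secretory gland genes such as Obp1a, an odorant-binding lipocalin of glands. Obp1a, with 99.5% of its PBS UMIs in 1 cell, was the second gene by level in PBS, at 17619.5 CPM. Gland genes summed to 361 CPM in the remaining PBS cells and to 361 CPM in PBS endothelial barcodes, and to 0 in the CFA cells. The barcode is not among the unmarked cells.

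Between the libraries, 9365 genes had a mean CPM of at least 10. A ratio of CFA to PBS of at least 2 was found for 800 of them (8.54%) and a ratio of at most 0.5 for 366 (3.91%). The median gene stood at a log2 ratio of 0.12. A gene almost absent from a library could pass the CPM filter through the other library alone, and was then counted only on that side. In the unmarked cells, of 9124 genes 776 were at least 2-fold higher (8.51%) and 897 at least 2-fold lower (9.83%), with a median gene at -0.02. Of the genes that were 2-fold apart, 68.6% were higher in CFA, and this was 56.3% after scaling by the median gene ratio, 46.4% in the unmarked cells, and 51.4% in the unmarked cells where the filter used their own levels. The count of genes on each side thus differed with the cells and with the depth used. The unmarked cells held 1022926 UMIs in PBS and 299094 in CFA, against 1892225 and 944717 in all cells. Their shares therefore hold more counting error. With each of all cells thinned to 2000 UMIs, 1100 genes were higher and 1261 lower, so 46.6% were higher. Between all cells and the unmarked, a gene was higher in both sets in 390 cases, lower in both in 201 and opposite in 22. Of the 800, 86 had more than 50% of their CFA UMIs in 1 cell.

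Lists of genes by function differed in how far they lay from these shares. For every list below, the shares of all genes are 8.54% higher and 3.91% lower in all cells, and 8.51% and 9.83% in the unmarked. The interferon-inducible GTPases, MHC class I genes, complement and acute-phase genes were higher in CFA in most of their measured members. Fibrillar collagens, elastic fiber genes and the IGF system lay slightly below 0, and immediate early genes lay close to it.

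**Figure D2:**
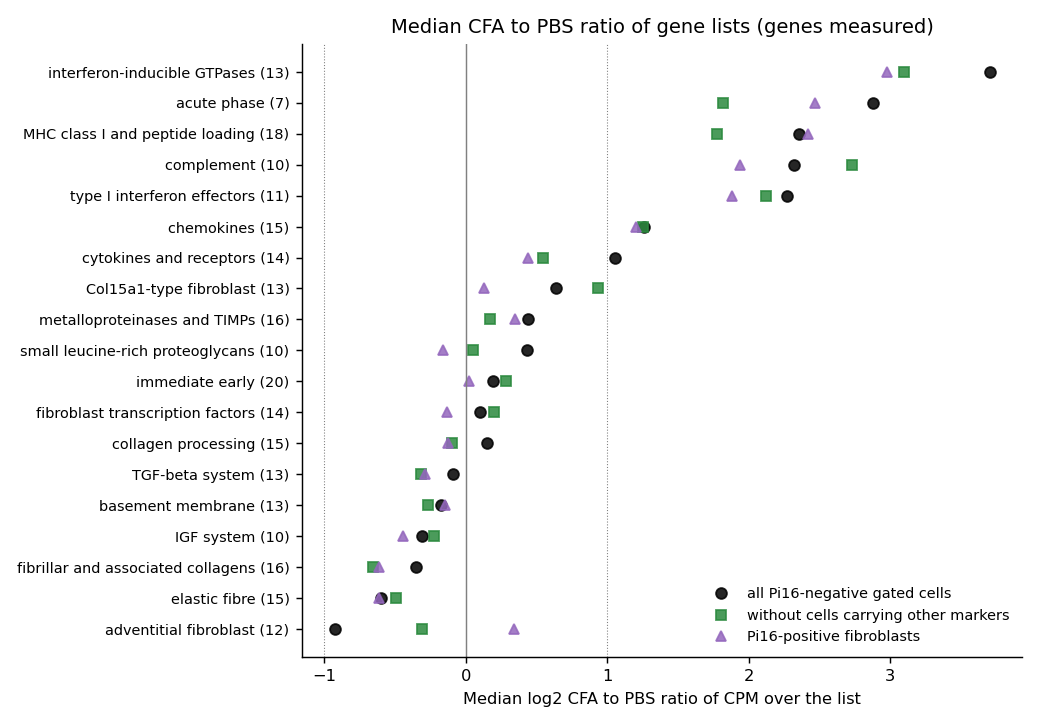
Median log2 ratio of CFA to PBS CPM (x axis) for each of 19 gene lists (y axis), in all gated cells (black circles), in the unmarked cells (green squares) and in Pi16-positive fibroblasts (purple triangles). Dotted lines stand at a 2-fold difference either way. The GTPase list lies farthest to the right for all gated cells, at 3.70, and the elastic fiber and fibrillar collagen lists lie to the left of 0, at -0.60 and -0.35.

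The interferon-inducible GTPases, which attack the vacuoles of intracellular microbes, were all on one side. All 13 measured members of the 17 listed were at least 2-fold higher in CFA, against 8.54% of all genes, with a median log2 ratio of 3.70. In the unmarked cells it was 11 of 11, with a median of 3.10. Members almost absent from PBS, such as Gbp10, counted as measured through their CFA level and could only be higher. Irgm2 stood at 22.7 CPM in PBS and 93.1 in CFA, a ratio of 4.10 (2.82-6.05), and was read in 26 of 145 and 37 of 75 cells. Gbp2 was at 21.7 and 147 CPM, a ratio of 6.79 (4.76-9.87), and Igtp (Irgm3) at 8.46 and 121, a ratio of 14.3 (8.42-25.8), with 49.1% of the Igtp UMIs of CFA in 1 cell. The unmarked cells gave lower ratios for Gbp2 (3.42, 2.01-5.82) and Igtp (4.79, 1.98-12.0), and a like one for Irgm2 (4.21, 2.43-7.35).

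Iigp1 had the highest level of the list in CFA. It was at 65.5 CPM in PBS and 773 in CFA, a ratio of 11.8 (9.74-14.4), and at 90.9 and 802 CPM in the unmarked cells. After thinning every cell to 1000 UMIs it was read in 3.45% of PBS and 24.0% of CFA cells. In the endothelial barcodes Iigp1 was already at 1408 CPM in PBS and was at 1975 in CFA, so the fibroblasts had far less of it than endothelium in PBS. The other members were low in PBS. Gbp7 was at 12.7 and 98.4 CPM (7.76, 4.91-12.7), in 18 and 35 cells, and Irgm1 at 10.6 and 37.0 (3.51, 1.97-6.41), in 14 and 23 cells. Gbp10 had no PBS UMI and was at 21.2 CPM in CFA (at least 13.4-fold higher, against a floor of 3 counts), and 62% of the Gbp5 UMIs in CFA came from 1 cell.

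Several of these genes carry the letters of interferon response motifs shortly before their start. The windows, cut around the matched letters, are printed to show where these lie. Those of Igtp and Irgm2 are nearly the same. The patterns searched on both strands of the 250 bases before each RefSeq gene start (GRCm38.p6) were GAAANNGAA, the core of the interferon-stimulated response element that IRF proteins bind, and TTCNNNGAA, the gamma-activated site that STAT dimers bind. The patterns can share letters where they abut. The sequences below are from RefSeq, read 5′ to 3′ on the gene's own strand, with the matched letters in capitals. Igtp lies at chr11:58199496-58199545 (plus strand), Irgm2 at chr11:58214887-58214936 (plus strand), Tgtp2 at chr11:49064259-49064308 (minus strand), Irgm1 at chr11:48871421-48871465 (minus strand), Gbp2 at chr3:142620590-142620628 (plus strand) and Gbp3 at chr3:142559985-142560029 (plus strand). All lie upstream of the annotated start of the gene they are named for.
Igtp: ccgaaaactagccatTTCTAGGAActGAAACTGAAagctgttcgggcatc
Irgm2: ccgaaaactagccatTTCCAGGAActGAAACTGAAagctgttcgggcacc
Tgtp2: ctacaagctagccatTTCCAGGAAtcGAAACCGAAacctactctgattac
Irgm1: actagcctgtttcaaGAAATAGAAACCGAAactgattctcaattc
Gbp2: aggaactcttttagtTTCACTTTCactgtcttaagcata
Gbp3: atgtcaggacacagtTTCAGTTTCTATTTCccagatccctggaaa

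In Igtp, Irgm2 and Tgtp2 a gamma-activated site and a response element core start within 20 bases of each other, and 0.207% of the 32851 windows hold such a pair in either order. Irgm1 and Gbp3 hold overlapping copies of the core. Of the 9 measured GTPases with a window, 8 held the core and 5 the gamma-activated site, where 7.13% and 7.02% of all windows did. These genes are related copies, so their windows are not independent of each other.

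Genes of MHC class I and of peptide loading, whose products carry protein fragments to the cell surface for CD8+ T cells, had 15 of 18 measured members at least 2-fold higher in CFA (8.54% of all genes), with a median log2 ratio of 2.36. The unmarked cells had 11 of 18 higher and a median of 1.77. B2m, the common light chain, was at 228 CPM in PBS and 1342 in CFA, a ratio of 5.88 (5.27-6.57). The heavy chain gene H2-K1 was at 149 and 1299 CPM (8.75, 7.68-9.99) and H2-D1 at 163 and 1202 (7.36, 6.49-8.38). At least 1 UMI of B2m was found in 113 of 145 PBS cells and in 74 of 75 CFA cells. At 1000 UMIs per cell the shares were 13.8% and 68.0%.

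The light chain and heavy chains were also far apart without the marked cells, with B2m at 274 and 1377 CPM and H2-K1 at 183 and 1090. The immunoproteasome and transporter genes were at lower levels: Psmb8 stood at 20.6 and 107 CPM (5.19, 3.55-7.71) and Tap1 at 10.0 and 56.1 (5.59, 3.25-9.99). In the unmarked cells Psmb8 had a ratio of 2.05 (1.08-3.8) and Tap1 of 1.71 (0.527-4.92), so their difference lay more in the marked cells. The non-classical heavy chain gene H2-T23 was at 15.3 and 85.7 CPM (5.59, 3.62-8.87), and Nlrc5, an activator of class I transcription, at 7.93 and 37.0 (4.67, 2.49-9.21), in 7 and 19 cells. Tapbp (1.75), Psme1 (1.40) and Psme2 (1.36) were the members within 2-fold. Endothelial barcodes had B2m at 648 and 1520 CPM and a median log2 ratio of 1.12 over the list.

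Windows of B2m and Psmb8 show the patterns in this pathway. B2m at chr2:122147533-122147571 (plus strand) holds the response element core and Psmb8 at chr17:34198083-34198121 (plus strand) the gamma-activated site, both upstream of the start. Of 16 list genes with a window, 5 held either pattern, against 13.4% of all windows.
B2m: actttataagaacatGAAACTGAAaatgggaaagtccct
Psmb8: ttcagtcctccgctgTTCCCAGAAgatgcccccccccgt

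The receptors and factors of interferon signaling lay between these lists and all genes. Of 14 measured genes 5 were at least 2-fold higher and 0 lower, with a median log2 ratio of 0.67, and 4 were higher in the unmarked cells (0.55). Irf1 was at 259 CPM in PBS and 393 in CFA (1.52, 1.32-1.74) and the receptor gene Ifngr1 at 105 and 133. The kinase gene Jak1 was at 498 and 395 and the receptor gene Ifnar2 at 109 and 170 CPM, both within 2-fold. The promoter of Irf1 holds a gamma-activated site at chr11:53769909-53769947 (plus strand, GRCm38.p6).
Irf1: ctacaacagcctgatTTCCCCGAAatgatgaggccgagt

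The type I interferon effectors had 10 of 11 measured members higher and a median of 2.27, and 9 of 11 and 2.12 in the unmarked cells. Bst2 (tetherin, which holds budding virus at the membrane) was at 60.8 and 199 CPM (3.27, 2.58-4.17), Isg15 at 23.3 and 112 (4.83, 3.37-7.02) and Ifit1 at 3.70 and 66.7 (18, 8.26-46.7). Ifitm3 was within 2-fold, at 695 and 1154 CPM. All of these except Ifitm3 are genes of low level in PBS, and their ratios rest on few UMIs there. Ifi205, a DNA-sensor family gene of this response, was at 11.1 and 130 CPM (11.7, 7.35-19.6) and at 18.6 and 395 in the unmarked cells.

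Complement genes had 9 of 10 measured members at least 2-fold higher, again against 8.54% of all genes, with a median log2 ratio of 2.32. Here the unmarked cells had the higher median (2.73, 7 of 9 higher). C3, the central component, was at 149 CPM in PBS and 821 in CFA (5.53, 4.82-6.36), and at 245 and 1625 in the unmarked cells. The Pi16-positive fibroblasts had more of it in both libraries, 549 and 2978 CPM, while endothelial barcodes had 6.66 and 15.6. C3 was read in 44 of 145 PBS and 32 of 75 CFA cells, so it was not detected in most cells of either library at this depth.

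A regulator stood on the same side. Serping1, the inhibitor of C1 proteases, was at 867 and 1911 CPM (2.20, 2.06-2.36). C4b was at 29.6 and 153 CPM (5.19, 3.79-7.19) and Cfb at 11.1 and 86.8 (7.82, 4.80-13.3). C2 and C1ra, proteases of the classical pathway, were at 19 and 91.0 CPM (4.78, 3.21-7.27) and at 89.8 and 238 (2.65, 2.16-3.25), and were 5.99-fold and 3.08-fold apart in the unmarked cells. C1s1 was the member within 2-fold, at 167 and 291 CPM (1.74, 1.48-2.06). Cfd (adipsin) was at 0 and 37.0 CPM, with all its CFA UMIs in 1 cell.

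**Figure D3:**
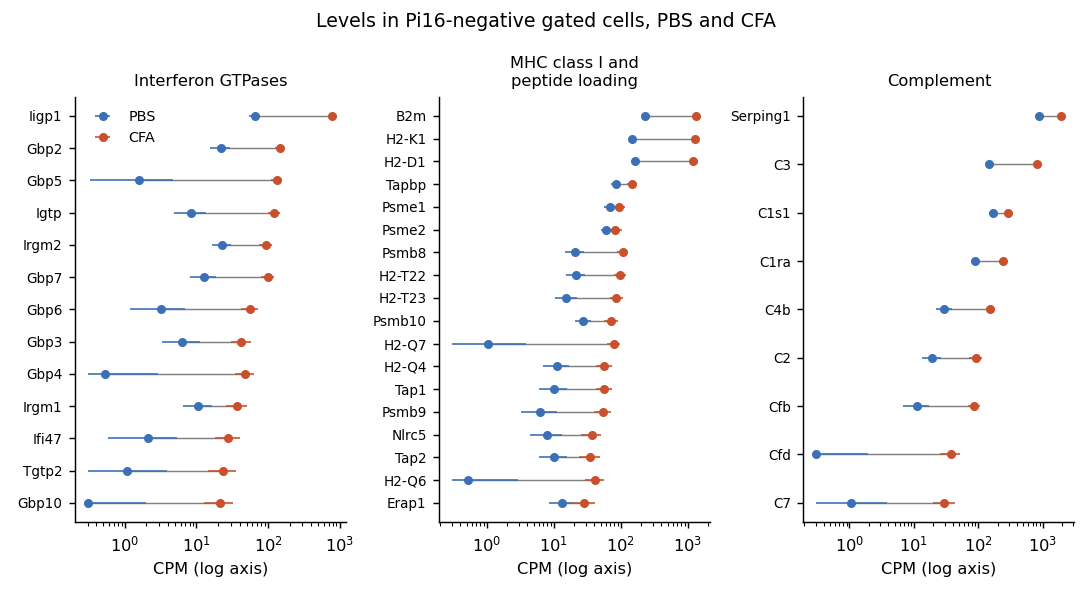
CPM on a log axis (x) of interferon-inducible GTPases, MHC class I genes and 9 complement genes (y axis) in the gated cells of the PBS library (blue) and the CFA library (red), with exact 95% Poisson intervals for counting error. Levels below 0.3 CPM are drawn at 0.3. The CFA dot lies to the right of the PBS dot for every gene drawn, from 1.36-fold for Psme2 upwards.

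The acute-phase genes rested on few cells. Of 7 measured genes 5 were higher, with a median of 2.88 in all cells and 1.81 in the unmarked. Saa3 (serum amyloid A3) had 0 UMIs in PBS and 2052 CPM in CFA, from 12 of 75 cells and with 64.9% of the UMIs in 1 cell. Hp (haptoglobin) was at 1.06 and 1281 CPM, from 2 and 9 cells. Cp (ceruloplasmin, a copper-carrying ferroxidase) was spread more widely, at 101 and 414 CPM (4.10, 3.44-4.90) in 52 and 44 cells, and Serpina3n, a protease inhibitor, was at 19 and 140 (7.34, 5.05-10.9) in 17 and 17 cells, but 49.2% of its CFA UMIs were in 1 cell and its CFA level was 74.7 CPM without the deepest cell. In the Pi16-positive fibroblasts Saa3 was at 1.01 and 383 CPM and Hp at 4.53 and 378.

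Chemokine genes were higher in most cases. Of 15 measured, 10 were at least 2-fold higher in CFA and 0 lower, with a median log2 ratio of 1.26, and in the unmarked cells 10 were higher and 1 lower, with a median of 1.25. Cxcl12, which binds CXCR4 on leukocytes and progenitors, was at 181 and 473 CPM (2.62, 2.27-3.02), in 80 and 41 cells, and was at 261 and 622 in the unmarked cells. Ccl11 (eotaxin, an attractant of eosinophils) was at 46.5 and 114 (2.46, 1.84-3.30) and Cxcl14 at 73.5 and 176 (2.39, 1.90-3.02). These were 2-fold apart in the unmarked cells as well, by 2.20 and 2.46, but Ccl11 had a ratio of 0.908 when barcodes were thinned before gating.

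Cxcl1, an attractant of neutrophils, was on opposite sides. It was at 253 and 328 CPM in all cells (1.30, 1.12-1.5) and at 325 and 107 in the unmarked (0.330, 0.222-0.475). Ccl19, a ligand of CCR7, was at 75.6 and 162 CPM in all cells (2.14, 1.69-2.71) and at 102 and 93.6 in the unmarked (0.921, 0.584-1.41). The interferon-induced chemokines Cxcl9 and Cxcl10, which draw T cells through CXCR3, were at 35.4 and 127 CPM and at 56.0 and 122, but were read in only 14 and 11 of the CFA cells, with 55.8% and 46.1% of the UMIs in 1 cell. In endothelial barcodes Cxcl9 was at 122 and 463 CPM. Cxcl5 was at 3.70 and 370 CPM, with 60.9% of its CFA UMIs in 1 of only 3 cells.

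Cytokine and receptor genes had 8 of 14 measured higher (8.54% of all genes were), but 3 of 13 in the unmarked cells (8.51%). Il6 was at 48.6 and 167 CPM in all cells (3.44, 2.64-4.50) and at 48.9 and 63.5 in the unmarked (1.30, 0.724-2.24), and had a ratio of 0.490 when barcodes were thinned before gating. The receptor gene Il1r1 was higher in both, at 114 and 246 CPM (2.15, 1.78-2.60) and at 129 and 301 in the unmarked (2.33, 1.76-3.07). Osmr, the receptor chain for oncostatin M, was at 68.7 and 191 CPM (2.77, 2.20-3.50). Tnfsf11 (RANKL, the osteoclast factor) was at 14.3 and 46.6 CPM (3.26, 1.98-5.48), and in the unmarked cells at 8.80 and 0.

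MHC class II genes and Lyz2, a myeloid gene, were also higher. Of 6 measured MHC class II genes 5 were at least 2-fold higher in all cells and in the unmarked, against 8.54% and 8.51% of all genes, and the median log2 ratio was 5.04 in all cells and 2.35 in the unmarked. Each of the 5 had from 60.6% to 82.3% of its CFA UMIs in 1 cell. Cd74 had 0 UMIs in PBS and 131 CPM in CFA, with 82.3% of its UMIs in 1 cell, while in endothelial barcodes it was at 34.4 and 656 CPM. Lyz2 (lysozyme) was at 4.23 and 159 CPM (37.6, 18.6-88.6), read in 8 of 145 and 61 of 75 cells, and in endothelial barcodes at 4.40 and 221. Immune barcodes were 10.0% of the PBS library and 27.8% of the CFA library. The immune list of 6 genes, Lyz2 among them, summed to 6.87 and 184 CPM in the gated cells. Within it Ptprc was at 0 by the gate, Cd3e at 0, and Tyrobp at 0.528 and 8.47 CPM. The part of free leukocyte RNA in these values was not tested.

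Structural matrix genes were at lower or like levels in CFA. The 16 fibrillar and associated collagen genes summed to 34651 CPM in PBS and 22186 in CFA, with 1 gene at least 2-fold lower (3.91% of all genes were) and 1 higher, and a median log2 ratio of -0.35. Col1a1 was at 8030 and 4674 CPM (0.582, 0.563-0.602) and Col1a2 at 7500 and 4976 (0.664, 0.642-0.686). Col3a1, used in the gate, was at 12781 and 7160 (0.560, 0.545-0.576). The unmarked cells gave 0.522 for Col1a1 and 0.572 for Col3a1, and the Pi16-positive cells 0.486 and 0.638.

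The chains were not all lower. Col5a2 was at 1301 and 1337 CPM (1.03, 0.960-1.10), Col6a1 at 908 and 797, and Col6a6 at 175 and 63.5 (0.362, 0.270-0.478). Col12a1, of tendon and fascia, was at 312 and 383 CPM in all cells (1.23, 1.07-1.40) and at 45.0 and 181 in the unmarked (4.01, 2.66-6.08). Col8a2 was the higher one, at 28.5 and 66.7 CPM (2.34, 1.6-3.43), and 1.30 (0.499-3.06) in the unmarked cells. Collagen processing genes, among them the collagen chaperone gene Serpinh1 (1151 and 857 CPM), had 0 of 15 higher and 1 lower, Pcolce2 at 200 and 91.0 CPM (0.456, 0.356-0.577).

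Elastic fiber genes had 3 of 15 measured at least 2-fold lower and 1 higher, with a median of -0.60, and in the unmarked cells 4 lower and 2 higher (-0.50). Of all genes, 3.91% were lower and 8.54% higher in all cells, and 9.83% and 8.51% in the unmarked. Eln (elastin) was at 833 CPM in PBS, in 90 of 145 cells, and at 275 in CFA, in 32 of 75 cells, a ratio of 0.330 (0.289-0.377). The unmarked cells gave 754 and 241 CPM, and the Pi16-positive fibroblasts 1634 and 525. In endothelial barcodes Eln was at 185 and 218.

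The microfibril genes Mfap2 (149 and 58.2 CPM, 0.391, 0.287-0.523) and Mfap4 (180 and 77.3 CPM, 0.430, 0.329-0.555) stood beside elastin, while fibrillin Fbn1 was at 555 and 536 (0.965, 0.866-1.07). Mfap5 was at 652 and 375 CPM in all cells (0.575, 0.509-0.647) and at 768 and 244 in the unmarked (0.318, 0.246-0.404). Ltbp2, which binds fibrillin, was the higher gene, at 12.2 and 51.9 CPM (4.27, 2.55-7.34). Fbln1 was at 258 and 438 CPM (1.70, 1.49-1.94), and 2.08-fold apart (1.77-2.45) in the unmarked cells.

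In the IGF system the growth factor itself was lower. Igf1 was at 600 CPM in PBS and 198 in CFA, a ratio of 0.330 (0.281-0.385), and was read in 102 of 145 and 28 of 75 cells. At 1000 UMIs per cell it was in 34.5% and 13.3% of cells, against 2.41% and 1.53% of endothelial barcodes. In CPM the endothelial barcodes were lower by a like factor, at 60.8 and 20.1 (0.331, 0.273-0.399). Mural and immune barcodes had Igf1 ratios of 0.492 and 0.729, so a lower Igf1 was not particular to the gated cells. The unmarked cells were at 981 and 261 CPM (0.266, 0.208-0.335) and the Pi16-positive ones at 849 and 472 (0.555).

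The ligand Igf2 was at 37.5 and 15.9 CPM (0.423, 0.225-0.746), in few cells. Igfbp2 was at 132 and 16.9 CPM (0.128, 0.0721-0.212), with 12 and 4 cells holding it. The abundant binding proteins were within 2-fold: Igfbp5 was at 2125 and 1891 CPM, Igfbp6 at 1400 and 990, Igfbp7 at 1303 and 2056 and Igfbp4 at 916 and 960. Of the 10 genes 3 were thus lower and 0 higher, against 3.91% and 8.54% of all genes. The unmarked cells had the same counts, against 9.83% and 8.51%.

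**Figure D4:**
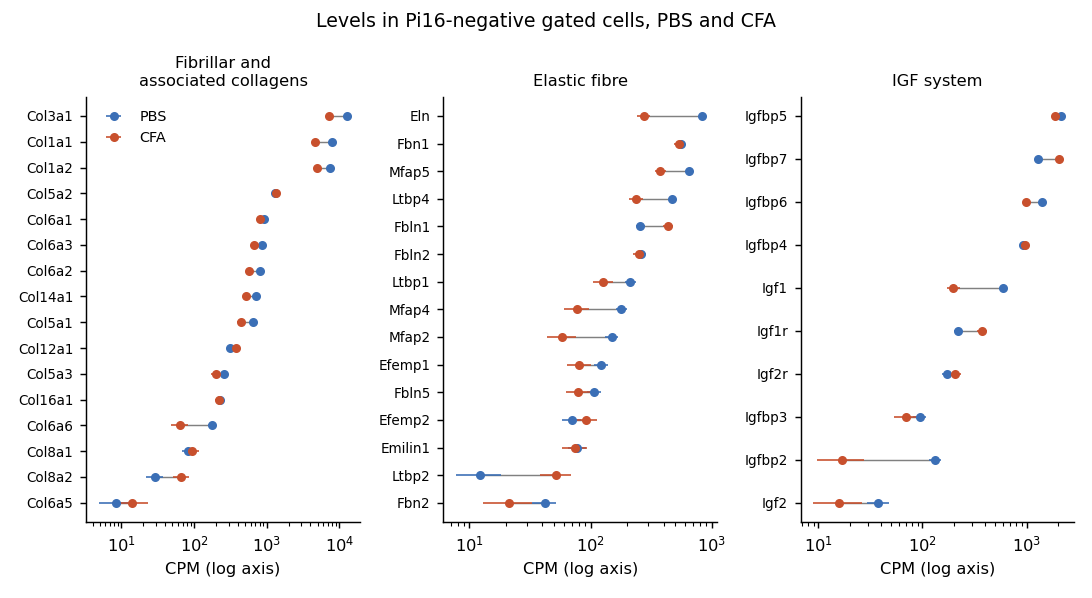
CPM on a log axis (x) of fibrillar collagens, elastic fiber genes and IGF system genes (y axis) in the gated cells of the PBS library (blue) and the CFA library (red), with exact 95% Poisson intervals for counting error. Eln, Igf1, Igfbp2 and Col6a6 have their CFA dot well to the left of the PBS dot, and Col5a2, Fbn1 and Igfbp4 have both dots close together.

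Matrix-degrading enzymes and their inhibitors had 4 of 16 higher and 0 lower (8.54% and 3.91% of all genes), and 3 higher and 1 lower in the unmarked cells (8.51% and 9.83%). Mmp13 (collagenase 3) was at 92.0 and 742 CPM (8.07, 6.83-9.58), from 11 and 18 cells, and at 0 and 144 in the unmarked cells. It was read in only 6.25% of the unmarked CFA cells, and 32.7% of its UMIs in all CFA cells were in 1 cell. Mmp3 (stromelysin 1) was at 75 and 472 CPM with 92.6% of the CFA UMIs in 1 cell, and had a ratio of 0.341 when barcodes were thinned before gating. Timp1, an inhibitor of these enzymes, was at 97.8 and 305 (3.12, 2.58-3.77), and at 52.8 and 56.8 in the unmarked cells (1.08, 0.585-1.89). Mmp2, the most widespread of them, was at 683 and 637.

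Genes of activated and tendon-like fibroblasts were split. Ccn2 (CTGF) was at 96.2 and 229 CPM (2.38, 1.94-2.91), and at 34.2 and 217 in the unmarked cells (6.35, 4.15-9.87). Cilp was at 134 and 328 CPM (2.45, 2.07-2.91) and Comp, a pentameric matrix protein of tendon and cartilage, at 256 and 540 (2.11, 1.86-2.39), with 52.0% of the Comp UMIs of CFA in 1 cell. Tnc (tenascin C) was at 237 and 484 CPM in all cells and at 2.93 and 6.69 in the unmarked, so it belonged to the marked cells. Postn (1281 and 1354 CPM) and Fn1 (2739 and 2330 CPM) were within 2-fold.

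Markers of fibroblast kinds were compared next. Adventitial markers other than Pi16 were lower in 6 of 12 cases and higher in 0, with a median log2 ratio of -0.93, but lower in 2 of 12 in the unmarked cells (median -0.31). Of all genes, 3.91% were lower in all cells and 9.83% in the unmarked. Cd34 was at 293 and 127 CPM (0.434, 0.353-0.529), and at 483 and 311 in the unmarked cells (0.644, 0.510-0.805). Cd248 (endosialin) was at 104 and 33.9 (0.327, 0.218-0.477), with 144 and 40.1 in the unmarked cells. Cd55, Dpp4 and Sema3c had ratios of 0.254, 0.380 and 0.378, and of 0.713, 0.704 and 0.556 in the unmarked cells. The Pi16-positive cells had a median of 0.34 over this list. The direction turned with the choice of cells: the median was 0.20 when barcodes were thinned to 2000 UMIs before the gate was applied, and 0.51 when Pi16 was not limited.

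The markers of Pi16-negative parenchymal fibroblasts had 4 of 13 higher and 0 lower in all cells (median log2 ratio 0.63), and 6 higher and 1 lower in the unmarked (0.93), but their median was -0.49 when barcodes were thinned before the gate was applied. The shares of all genes were 8.54% and 3.91% in all cells, and 8.51% and 9.83% in the unmarked. Inmt was at 97.2 and 264 CPM (2.71, 2.23-3.30) and at 151 and 819 in the unmarked cells (5.44, 4.43-6.70). Apod (apolipoprotein D) was at 431 and 951 (2.21, 2.01-2.43) and at 626 and 2264 in the unmarked (3.62, 3.24-4.04). Apoe (apolipoprotein E), of the lipid list, was at 383 and 687 CPM (1.79, 1.61-2) and at 430 and 1334 in the unmarked cells (3.10, 2.70-3.56). Col15a1 itself went the other way, with 240 and 128 CPM (0.533, 0.432-0.652) and 351 and 150 in the unmarked cells (0.429, 0.307-0.586).

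Of 14 measured transcription factor genes of fibroblasts, 1 was at least 2-fold higher and 2 were lower, against 8.54% and 3.91% of all genes. Foxs1 was the higher one, at 7.40 and 18 CPM, and Meox1 (21.1 and 8.47 CPM) and Osr2 (20.1 and 9.53 CPM) were the lower ones, all at few UMIs. The more abundant Prrx1 was at 785 and 898 CPM and Ebf1 at 1503 and 1786. Of 11 measured jaw factors, which pattern the first pharyngeal arch, 2 were higher and 0 lower in all cells, and 0 higher and 2 lower in the unmarked. Pax9 was at 12.7 and 60.3 CPM and Lhx8 at 8.98 and 23.3 in all cells, with ratios of 0.933 and 1.24 in the unmarked. With barcodes thinned before gating, the ratios of Foxs1, Pax9 and Lhx8 were 0.578, 0.994 and 0.314. Barx1 was at 106 and 76.2 CPM and Dlx5 at 74.5 and 46.6. Tissue of the cranial neural crest is known to lack Hox expression, and the cells held 15 Hox UMIs in PBS and 14 in CFA over 39 genes. Immediate early genes, which respond to tissue digestion, had 0 of 20 measured genes 2-fold apart: Fos was at 2198 and 2675 CPM (1.22, 1.16-1.28) and Jun at 1518 and 1829 (1.20, 1.13-1.28). Cebpb and Cebpd, factors of both acute-phase and adipogenic programs, were at 85.6 and 259 CPM (3.03, 2.47-3.72) and 341 and 683 (2, 1.79-2.23), and Cebpb was 1.47-fold apart (1.02-2.10) in the unmarked cells.

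Among the remaining lists, TGF-beta system genes had 2 of 13 higher and 0 lower in all cells, against 8.54% and 3.91% of all genes. In the unmarked cells 0 were higher and 3 lower, against 8.51% and 9.83%. With 13 genes, no direction is read from these counts. The higher ones were Tgfb2, at 169 and 379 CPM (2.25, 1.93-2.62), and Inhba, the activin A chain gene, at 32.8 and 106 (3.23, 2.33-4.51), and their ratios were 0.869 and 1.22 in the unmarked cells. The lower ones of the unmarked cells were Tgfb1 (33.2 and 13.4 CPM), Tgfb3 (105 and 50.2 CPM) and the latency protein gene Ltbp1 (334 and 134 CPM). Other lists are set against 8.54% of all genes higher and 3.91% lower in all cells, and 8.51% and 9.83% in the unmarked. PDGF and VEGF genes had 0 higher and 1 lower of 13, and 1 and 2 in the unmarked cells. Wnt and BMP antagonists had 1 higher and 1 lower of 10, and 0 and 1 of 9 in the unmarked. Hyaluronan genes had 1 and 1 of 6, and 0 and 1 of 5 in the unmarked, while retinoid genes had 2 and 0 of 9, and 3 and 0 of 8. Basement membrane genes had 0 and 0 of 13, and 0 and 1 in the unmarked. With lists of this size, counts of 1 or 2 lie near these shares. Small leucine-rich proteoglycans had 2 and 0 of 10, and 1 and 1 in the unmarked, among them Fmod (fibromodulin) at 235 and 702 CPM (2.99, 2.65-3.38). Angptl1 was the lower PDGF and VEGF list gene, at 572 and 255 CPM (0.446, 0.386-0.513), in 96 and 40 cells, and Vcan (versican) the lower hyaluronan list gene, at 311 and 143 (0.460, 0.379-0.555). With barcodes thinned before gating their ratios were 1.09 and 1.04. Aldh1a3, an enzyme of retinoic acid synthesis, was at 7.40 and 86.8 CPM and at 0 in the unmarked cells of both libraries.

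Among all genes with at least 10 UMIs in both libraries and 100 CPM in 1, those with the highest and lowest ratios included several that belonged to few cells. Kcnq5 (a potassium channel gene) was at 15.9 and 498 CPM (31.4, 21.7-47.0), at 6.84 and 0 in the unmarked cells, and had a ratio of 0.132 when barcodes were thinned before gating. Car3, at 8.46 and 319 CPM, had all its CFA UMIs in 1 cell, and Fabp5, at 49.1 and 411, 77.3% of them. Chl1, a neural adhesion molecule gene, was at 9.51 and 133 CPM (14.0, 8.52-24.4), at 0 and 76.9 in the unmarked cells and at 1.01 and 160 in Pi16-positive fibroblasts.

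At the low end some genes were spread over many cells and others over few. Lsamp, a membrane-anchored adhesion molecule gene, was at 537 CPM in 80 of 145 PBS cells and 110 in 19 of 75 CFA cells (0.205, 0.166-0.251), and at 836 and 321 in the unmarked cells. Mdk (midkine, a growth factor) was at 128 and 43.4 CPM (0.339, 0.238-0.474), and Myoc (myocilin) at 193 and 56.1 (0.291, 0.214-0.389), though Myoc was higher in CFA in the Pi16-positive cells (1.51, 1.33-1.71) and had a ratio of 1.14 when Pi16 was not limited. H19, an imprinted non-coding RNA of growing tissue, was at 142 and 32.8 (0.231, 0.154-0.335), in 18 and 3 cells. Fat3, at 253 and 78.3 CPM, had 90.5% of its CFA UMIs in 1 cell, while Cnn1 (calponin 1 of smooth muscle), at 210 and 52.9, was at 0.978 and 0 in the unmarked cells. Gm10076 (522 and 156 CPM) and Gm47283 (147 and 30.7 CPM) were lower, and so they were in endothelial barcodes, at 405 and 116 and at 166 and 52.9 CPM. Lsamp, Mdk, Myoc and H19 were lower there too, with ratios of 0.155, 0.265, 0.0212 and 0.0570. Fat3 and Cnn1 had endothelial ratios of 0.532 and 0.546. In mural barcodes Lsamp was higher in CFA (2.20). How far these differences are shared by the whole library was not tested.

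Cell by cell, the MHC class I list was higher in many CFA cells. With every cell thinned to 1000 UMIs, the median was 1 list UMI per cell in PBS and 4 in CFA, and 39 of 75 CFA cells (52.0%) lay above the 95th percentile of the PBS cells, against 3.45% of the PBS cells themselves. In the unmarked cells it was 18 of 32 (56.3%). For complement the medians were 1 and 2, with 28% of CFA cells above, and 50% of the unmarked. For the GTPases it was 25.3% and 25%, and for the acute-phase list 17.3% and 12.5%. The median of the fibrillar collagens was 28 UMIs per 1000 in PBS and 14 in CFA, with 20% of CFA cells below the 5th percentile of PBS cells, and 30.5 and 15.5 in the unmarked, with 43.8% below.

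**Figure D5:**
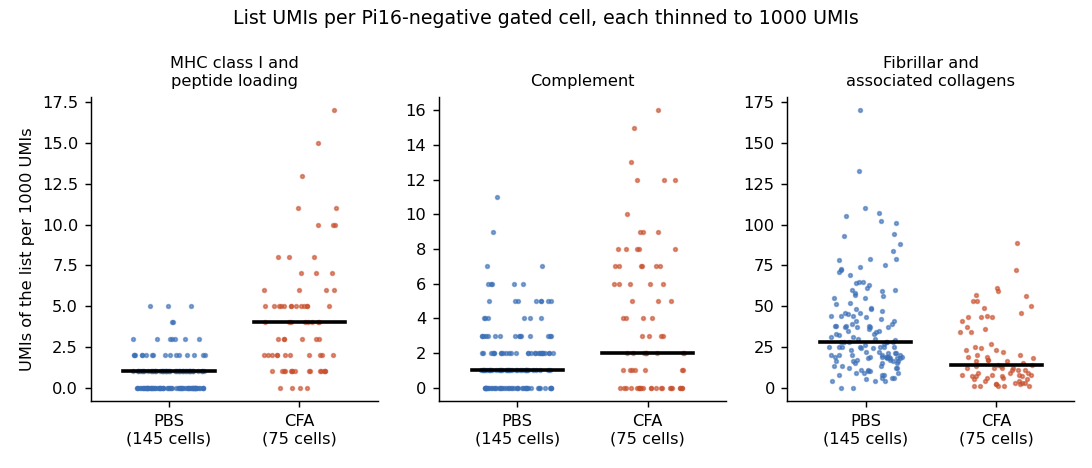
UMIs per cell of the MHC class I, complement and fibrillar collagen lists (y axes) after each cell was thinned to 1000 UMIs, for the 145 PBS and 75 CFA cells (points), with the median as a black bar. The medians are 1 and 4 for MHC class I, 1 and 2 for complement, and 28 and 14 for the fibrillar collagens, and the cells of both libraries overlap in each panel.

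The genes that varied most among cells of 1 library, by variance over mean at 1000 UMIs, came from the other signatures and from the fibroblasts' own products. In PBS the first 3 were gland genes, led by Obp1a with a variance of 235 times its mean, and Acta2 (19.5), Gsn (14.4), Col1a1 (11.8) and Apod (8.67) were among the first 15. In CFA they were led by Hp (16.7) and included Gsn (13.5), Dcn (12.4), Apod (10.4), Acta2 (9.45), Comp (8.11) and Cilp (7.93). The libraries shared 7 of the first 15. At 1000 UMIs Gsn was read in 85.5% of PBS cells with up to 70 UMIs, and Comp in 12.0% of CFA cells with up to 14.

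Against the Pi16-positive fibroblasts of the same library, 1654 genes were compared in the unmarked cells. At least 2-fold above in both libraries were 15, and 21 were at least 2-fold below. Comp was at 425 CPM against 31.7 in PBS (13.4, 10.3-17.8) and at 1474 against 74.7 in CFA (19.7, 16.3-24.1). Most Comp UMIs of the unmarked CFA cells came from the single cell noted for Comp above, which the interval does not take into account. Ptn (pleiotrophin, a heparin-binding growth factor) was at 2108 against 668 (3.15, 2.94-3.38) and 702 against 233 (3.02, 2.55-3.57), and thereby 0.333 times as high in CFA as in PBS. Cilp was at 222 against 89.1 and 849 against 119, and Lsamp at 836 against 346 and 321 against 132. Aqp1, S100a4, Rgcc, Fbln7, Cdh13 and Enpp2 were the others of the first 10.

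On the low side stood other adventitial genes. The gate did not count them, but it divides the classes by Pi16, which the adventitial kind expresses with them. Their lower levels thus follow in part from the division and are given only as a description. Dpp4 was at 66.5 against 201 CPM in PBS (0.330, 0.251-0.428) and 46.8 against 196 in CFA (0.239, 0.130-0.407). Cd55 was at 70.4 against 279 and 50.2 against 407, Sema3c at 156 against 432 and 86.9 against 559, and Mfap5 at 768 against 2008 and 244 against 1401. Anxa3, Tek, Limch1, Pcsk6, Adgrd1 and Cd248 completed the first 10. When all gated cells were compared instead, the first genes above were Tagln, Acta2 and Myh11 of smooth muscle.

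Against the Prg4-high lining fibroblasts, 24 cells in PBS and 8 in CFA, 173 of 1746 genes were above and 101 below in both libraries. Sfrp2, a secreted Wnt antagonist, was at 988 against 2.20 CPM in PBS and 963 against 54.6 in CFA, and Apod at 626 against 24.2 and 2264 against 32.8. Igfbp3, Itgbl1, Fst and Comp were also above. Hbegf (a growth factor of the EGF family) was at 8.80 against 2709 and 16.7 against 1366, and Htra4, Chst2, Tspan15 and Cd55 were below as well. Prg4 and Thbs4 were among the lowest by the gate itself.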

How the data were processed

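The authors digested whole TMJ tissue, depleted CD45+ cells and made 10x Genomics 3′ libraries, and the labels and the methods differ on the collagenase and the kit version. They aligned reads to mm10 with Cell Ranger 7.0.1 and deposited raw UMI counts per gene and barcode (7671 barcodes in PBS, 5709 in CFA, with 51146169 and 53517206 UMIs).

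From these counts, barcodes were filtered and gated as described in the report. Doublets were not removed; Scrublet scores (scanpy 1.11.5) entered an alternative only. UMIs were summed over cells per library, scaled to CPM and compared as a ratio with an exact conditional binomial 95% interval. With 0 UMIs on one side, a floor of 3 counts was used. "Higher" and "lower" mean a ratio of at least 2 or at most 0.5 among genes with a mean CPM of at least 10. Shares have exact Clopper-Pearson intervals, and the ratio of shares a log-normal one. Cells were thinned to 1000 UMIs with a fixed seed for values per cell. The calculation was tested on simulated counts. Python 3.11.15, numpy 2.4.6, scipy 1.17.1 and pandas 2.3.3 were used. RefSeq promoter windows (GRCm38.p6) share the assembly of mm10.

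The members and the gene lists were chosen with earlier results of these data known. Genes named were those of the gate, the 20 of highest level per library, the 15 highest and 15 lowest ratios (at least 10 UMIs in both libraries, 100 CPM in 1, and 0.2 of the level in any other gated class), the leading and the 2-fold members of each list, the first 10 against other fibroblast classes and the 15 most variable per library, with the few that matter given. Alternatives were other scaling, summing, depth, filters, hemoglobin limits, doublet scores, Pi16 conditions and gates, given in the closing section. A few genes of the lists are counted but not reported by name here.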

Additional observations from a re-analysis of the deposited data

Results flagged for a closer look

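Among the genes named above, those at least 2-fold higher in CFA among the Pi16-negative cells and at most 0.5 times as high in CFA among the Pi16-positive fibroblasts were looked for. There were 7, and the difference between the classes was not tested, since each condition is 1 library. Kcnq5 had a ratio of 31.4 in the gated cells and was at 17.1 and 5.37 CPM (PBS and CFA) in Pi16-positive fibroblasts. Rgs5, a pericyte gene, had a ratio of 9.78, with 55.3% of its CFA UMIs in 1 cell, and was at 2.01 and 0.537 CPM in Pi16-positive cells, where 4 and 1 UMIs gave an interval of the ratio that includes 1 (0.00542-2.70). Mki67, of dividing cells, had a ratio of 6.89, was read in 8 cells of each library, and was at 24.2 and 0.537 CPM in Pi16-positive cells. In the unmarked cells Mki67 was at 5.87 CPM in PBS and 6.69 in CFA (1.14, 0.113-6.38). Ltbp2 had a ratio of 4.27, against 20.1 and 6.45 CPM in Pi16-positive cells. Tnfsf11, the RANKL gene, had a ratio of 3.26, against 8.56 and 0.537 CPM in Pi16-positive cells. Foxs1 had a ratio of 2.43, against 8.06 and 2.69 CPM in Pi16-positive cells. Notch3, of mural cells, had a ratio of 2.68, against 17.1 and 6.45. In the unmarked CFA cells Kcnq5 and Rgs5 had 0 UMIs, and Ltbp2 was at 6.84 and 36.8 CPM in the unmarked cells of PBS and CFA.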

How the results depend on the processing

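No paired analysis was possible because each condition is 1 library, and no replicate exists to leave out. Over all alternatives the median log2 ratio ran from 1.77 to 2.50 for MHC class I, 1.84 to 2.37 for type I interferon effectors, 1.88 to 2.73 for complement and -0.72 to -0.32 for elastic fiber genes. Other values moved as follows, and the cause was not tested.

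Genes at least 2-fold higher numbered 403 with Pi16 not limited, 474 with the gate applied to barcodes thinned to 2000 UMIs, 223 with a mean CPM of at least 50 and 1666 without this filter. Genes at least 2-fold lower numbered 818 without the marked cells, 1261 with cells thinned to 2000 UMIs, 95 with a mean CPM of at least 50 and 1016 without the filter. The stricter and looser filters test fewer and more genes by construction.

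With Pi16 not limited, the cells were 11.5% and 5.23% of barcodes, a ratio of 0.454, the adventitial median was 0.51, and the ratios of Cd55 (1.51), Dpp4 (1.09), Myoc (1.14) and Sema3c (1.40) reversed. With no hemoglobin limit the PBS share was 3.46%, the ratio of shares 0.499, the acute-phase median 2.24 and the fibrillar collagen median -0.10. Without immune barcodes in the denominator the shares were 6.04% and 2.59%, a ratio of 0.428.

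With the gate on thinned barcodes the PBS share was 6.68% and the ratio of shares 0.247. The medians were 0.20 for adventitial, -0.49 for parenchymal (Col15a1-type), 1.79 for acute-phase, -0.12 for fibrillar collagen, -0.080 for immediate early, 0.084 for osteoblast and -0.65 for cycling genes. The ratios of Angptl1 (1.09), Ccl11 (0.908), Ccl19 (0.932), Cd55 (1.18), Fabp5 (0.939), Foxs1 (0.578), Il6 (0.490), Inhba (0.600), Kcnq5 (0.132), Lhx8 (0.314), Mki67 (0.326), Mmp3 (0.341), Notch3 (0.0275), Pax9 (0.994), Rgs5 (0.0553), Sema3c (1.25) and Vcan (1.04) reversed.

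Leaving out the marked cells was added once the data had been seen, and the shares were then 3.67% and 0.797%, with a ratio of 0.217. The acute-phase median was 1.81 and the fibrillar collagen median -0.65, and the ratios of Ccl19 (0.921), Notch3 (0.489), Pax9 (0.933), Runx2 (0.570) and Tgfb2 (0.869) reversed.

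With a mean over cells the medians were 0.41 for chemokines, 1.93 for acute-phase and -0.56 for fibrillar collagen genes. With cells thinned to 2000 UMIs they were 2.40 for GTPases, 0.71 for chemokines, 1.99 for acute-phase and -0.43 for cycling genes, and Cxcl10 had a ratio of 0.879. Without the highest Scrublet scores the cycling median was -0.97, and Car3 (0.446) and Mki67 (0.630) reversed, as Car3 (0.369) did with at least 40 Dcn and Col3a1 UMIs. Of 2037 ratios of named genes under an alternative, 1414 stayed close, 593 moved and 30 reversed. A compared gene had as few as 20 UMIs in both libraries together, where counting error is widest.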
